A study of Mus musculus with 12 samples.

Results

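The natriuretic peptide system was followed through 6 genes: the hormone genes Nppa and Nppb, the convertase gene Corin, and the receptor genes Npr1, Npr2 and Npr3. The members were chosen as every probe whose accession names one of these genes, which gave 12 probes on 30 spots of each array, out of 41174 probes that are no controls. Of the 12 probes, 11 passed the filter on dim signal and were tested, so 5 of the 6 genes are among the 20869 genes tested. Nppa, Nppb, Npr2 and Npr3 had 2, 2, 3 and 3 probes, and Corin and Npr1 had 1 each.

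The samples fall into 3 groups with 4 arrays in each. The first holds embryonic stem cells of the mouse (mESC), and the others hold cells at day 9 and day 14 of differentiation toward cardiomyocytes. The protocol given for all 12 samples is the same: cells were put on dishes coated with a crosslinked elastin-like polypeptide, an artificial protein modelled on elastin, and kept in medium without the stem cell factor LIF and then in medium with a serum replacement. No transgene or added cardiac factor is named, and the strain and the line of the cells are not given in the sources used here. For the mESC group no time of sampling is given, and nothing says whether the 4 samples of a group came from separate cultures, so the p-values measure only how far these samples spread, and that spread may be technical.

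Natriuretic peptides are hormones of heart muscle that lower blood pressure and blood volume. Nppa encodes atrial natriuretic peptide (ANP) and Nppb encodes brain natriuretic peptide (BNP), both made as longer precursors. Corin is a serine protease on the surface of heart muscle cells that cuts the ANP precursor into the active hormone. ANP and BNP bind the receptor guanylyl cyclase encoded by Npr1, which makes cyclic GMP (cGMP) inside the target cell. Npr2 encodes the sister receptor for C-type natriuretic peptide (CNP, from the gene Nppc), known for its part in cartilage growth and vessels, and Npr3 encodes a clearance receptor without a cyclase, which takes peptides up. In the embryo Nppa marks the working muscle of the forming chambers, and both hormone genes rise again in strained adult heart muscle.

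Nppa and Nppb are neighbours on chromosome 4. In RefSeq's annotation of GRCm38.p6 Nppb spans bases 147985786 to 147987205 and Nppa spans bases 148000722 to 148002074, on the same strand, with 13516 bases and 0 annotated genes between them. Sequences before their start sites are shown because the hormone genes lie side by side and ranked the day 9 arrays in the same order. Between day 9 and day 14 their means differed in opposite directions, by 0.97 for Nppa and -0.95 for Nppb. Neither difference was called by the gene's brightest probe, and a link between sequence and level was not tested. The Nppa sequence is the 250 bases before the gene's start (chr4:148000472-148000721, plus strand). The Nppb sequence is a 30-base stretch (chr4:147985795-147985824, plus strand) that ends before the start site used here, base 147985900. This stretch was cut from the 250 bases searched so as to begin at a motif match, so its capitals lie denser than in the whole window. It lies inside the annotated Nppb gene, whose model begins further upstream at base 147985786. Capitals mark matches to the searched motifs, and both sequences come from RefSeq.
Nppa: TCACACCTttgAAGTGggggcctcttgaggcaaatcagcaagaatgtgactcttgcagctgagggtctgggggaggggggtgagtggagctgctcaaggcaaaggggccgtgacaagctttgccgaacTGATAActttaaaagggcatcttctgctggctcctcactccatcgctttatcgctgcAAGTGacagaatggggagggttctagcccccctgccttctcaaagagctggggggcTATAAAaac
Nppb: GGAATGcagcTGATAAatcagAGATAAccc
Both strands of the 250 bases before each start were searched for the following motifs. The GATA motif was searched as AGATAA, with AGATAG as a further form, as well as TGATAA, with TGATAG as its further form. The T-box motif was AGGTGTGA, the core bound by Nkx2-5 was AAGTG, the M-CAT element was CATTCC and the TATA box was TATAAA. The CArG box and the MEF2 site were each searched as a strict pattern, with fixed letters around a run of A or T of set length. In Nppa the GATA motif lay at bases -122 to -117, the T-box motif at -250 to -243 on the minus strand, AAGTG at -239 to -235 and -65 to -61, and TATAAA at -9 to -4. In Nppb GATA motifs lay at -95 to -90 and -84 to -79, CATTCC at -105 to -100 on the minus strand, and TATAAA at -31 to -26, outside the stretch printed. No match overlapped another. Of 32851 RefSeq promoters of this length, 26.5% held the GATA motif, 1.12% the T-box motif, 40.7% AAGTG, 12.6% CATTCC, 12.4% TATAAA, 1.47% a CArG box and 0.508% a MEF2 site. These letters were not in the windows of Corin, Npr1, Npr2 and Npr3, and neither hormone gene matched the strict pattern of a CArG box or a MEF2 site. Looser forms of these motifs were not searched. A match is a description of the sequence, not a measured binding site.

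Levels are given as log2 of a probe's signal minus the 75th percentile of its array, so that 0 is the array's 75th percentile. That percentile lay between 345.88 and 507.75 intensity units, no spot was saturated, and 59.5 to 67.9% of probes were above background per array. Each group lay on a slide and a scan of its own, so in all 3 comparisons the slide cannot be told apart from the group. The labels' cell identities were checked against marker genes. The mean level of 6 pluripotency markers lay between 5.10 and 5.14 on the mESC arrays, between -0.78 and -0.36 at day 9 and between -1.56 and -1.42 at day 14. The mean of 14 sarcomere genes lay between -1.40 and -1.28 in mESC, between 3.16 and 4.47 at day 9 and between 3.23 and 3.80 at day 14. All 14 sarcomere genes were called higher at both days than in mESC. RNA was taken from whole cultures, so a change in the share of heart muscle cells and a change in RNA per cell cannot be told apart.

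Against mESC, the members with a called change were the same at day 9 and day 14: Nppa, Corin and Npr2 were higher at both days, and the probes that stand for Nppb and Npr3 were not called. A gene stands by its brightest tested probe and was called with limma at an adjusted p under 0.05 (Benjamini-Hochberg over all genes) and an absolute log2 difference of at least 1. Thus 3 of 5 tested members were called higher and 0 lower at day 9, where 41% of all genes tested were called, 20% higher and 21% lower. At day 14 it was again 3 higher and 0 lower, where 46.9% of all genes were called, 22.8% higher and 24.1% lower. Between day 14 and day 9 limma called 0 of 5 members, where 13.8% of all genes passed (10.2% upward and 3.61% downward). By unadjusted p alone 3 of the 5 were under 0.05. The share of all genes under that looser limit was not counted, so this count cannot be weighed. The size of the called differences depended on the background correction: with normexp, Nppa, Corin and Npr2 exceeded mESC by 1.65, 2.39 and 1.86 at day 9 and by 2.38, 2.44 and 2.45 at day 14, all still called. Every such difference has the array's 75th percentile as its base. The median difference over all genes was -0.16, -0.19 and -0.091 in the 3 comparisons. Every array of day 9 and of day 14 was above every mESC array in Nppa, Corin and Npr2, as in 33.7% of all genes at day 9 and 36.1% at day 14. In no member was every day 14 array below every day 9 array, by the probe that stands for it, which held for 34.2% of all genes.

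**Figure D1:**
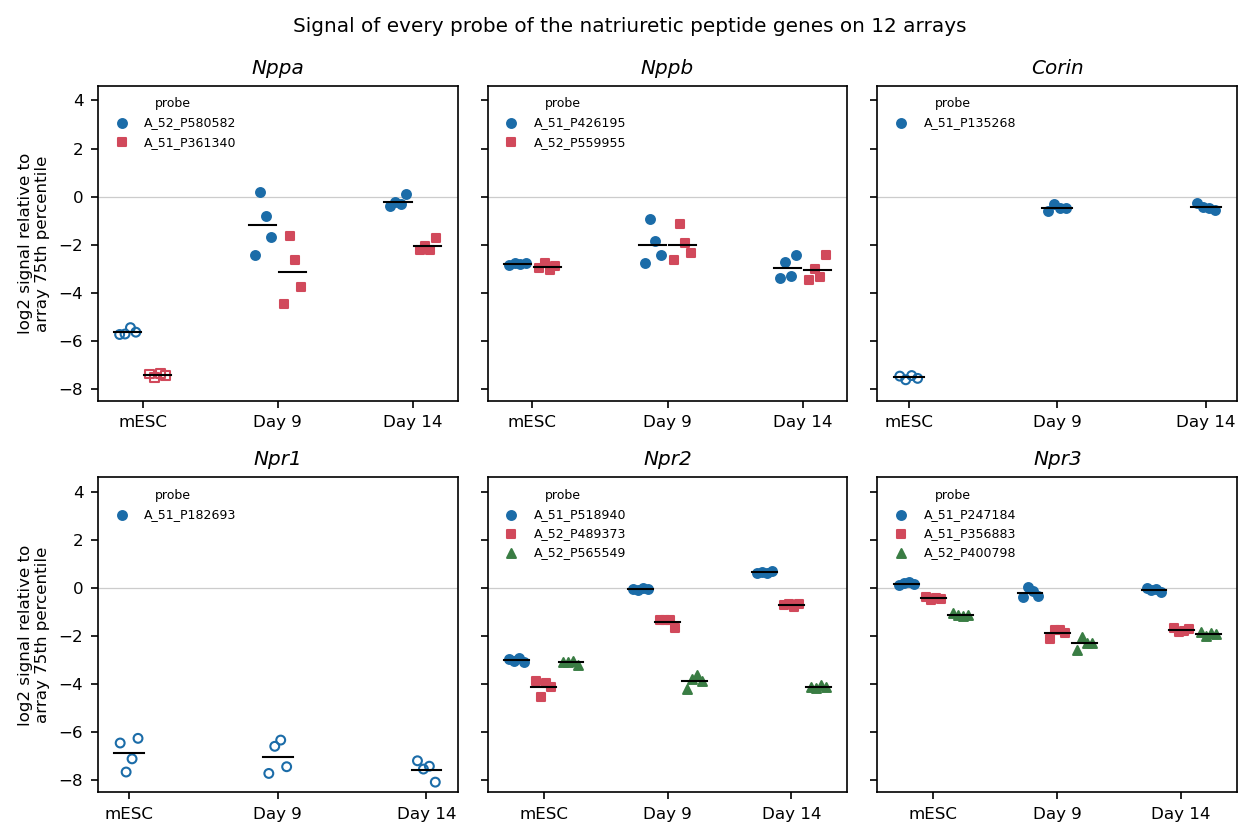
Log2 signal relative to the array's 75th percentile (y axis) of each of the 12 probes of the 6 genes on the 12 arrays, by group (x axis), with 1 point per array, open where the probe was not well above background, and a line at the mean of 4 arrays. Nppa and Corin are open points in mESC and filled at both days, Npr1 is open on all 12 arrays, and 1 of 3 Npr2 probes runs opposite to the other two.

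Nppa, the ANP gene, was not well above background on any mESC array and was above it on all 8 arrays of the later groups. The brighter Nppa probe, A_52_P580582, with 10 spots per array, lay between -5.74 and -5.45 in mESC. At day 9 it stood at -2.42, 0.18, -0.81 and -1.67 in replicates 1 to 4, and at day 14 at -0.40, -0.21, -0.31 and 0.10. Every later array was thus far above every mESC array, but the day 9 arrays were widely spread and overlapped those of day 14. The means were -5.64 ± 0.13 in mESC, -1.18 ± 1.12 at day 9 and -0.21 ± 0.22 at day 14 (SD, n = 4). The difference from mESC was 4.46 ± 0.43 (SE) at day 9 (limma adjusted p = 1.42e-06) and 5.43 ± 0.43 at day 14 (adjusted p = 2.05e-07). Because the mESC signal was at background, these differences are given as bounds: Nppa was at least 18.1-fold higher at day 9 and at least 35.6-fold higher at day 14. Such a bound sets the mean of the bright group against a floor on each dim array. The floor is the dimmest signal well above background or the probe's own signal, whichever is higher. That dimmest signal is taken over all probes and is not the limit of the probe itself. Each "at least" here therefore holds only under this rule, and a smaller fold is possible. With normexp background correction the Nppa differences were 1.65 and 2.38 on the log2 scale. The second Nppa probe, A_51_P361340, was at least 4.71-fold higher at day 9 and at least 9.88-fold higher at day 14.

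From day 9 to day 14 the mean of Nppa differed by 0.97 ± 0.43, which did not pass (95% interval 0.022 to 1.92, limma adjusted p = 0.0692). The second probe gave 1.07 (adjusted p = 0.0716). This comparison rested on the day 9 arrays. Without day 9 replicate 2, the brightest, the difference was 1.42 and was called (adjusted p = 0.00213). The range over the 12 fits that each left out an array was 0.56 to 1.42, with adjusted p-values from 0.00213 to 0.178.

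Nppb, the BNP gene, took another course: it was above background on all 12 arrays, mESC included, and its mean was highest at day 9. Probe A_51_P426195 lay between -2.86 and -2.77 on the mESC arrays. At day 9 it stood at -2.78, -0.94, -1.86 and -2.43 in replicates 1 to 4, and at day 14 at -3.39, -2.72, -3.30 and -2.41. Day 9 replicate 1 sat within the range of the mESC arrays, while replicates 2, 3 and 4 sat above it, and the day 14 arrays lay on both sides of mESC. Day 9 exceeded mESC by 0.80 ± 0.35 (SE), which was not called (limma adjusted p = 0.0505). Day 14 differed from mESC by -0.15, with a 95% interval from -0.92 to 0.62 (adjusted p = 0.696). Day 14 minus day 9 was -0.95 ± 0.35 (adjusted p = 0.0329), under the size needed for a call. Means were -2.81 ± 0.041 in mESC, -2.002 ± 0.80 at day 9 and -2.96 ± 0.47 at day 14 (SD, n = 4).

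The second Nppb probe, A_52_P559955, had nearly the same course and fell on the other side of the size limit between the days. It lay between -3.07 and -2.77 in mESC, between -2.65 and -1.14 at day 9 and between -3.46 and -2.43 at day 14. Its difference from mESC was 0.90 at day 9 (adjusted p over all probes 0.0166, not called for its size) and -0.14 at day 14. Between the days it was called lower, with a difference of -1.04 (adjusted p = 0.0112). The call of the first probe depended on single arrays. It was called lower at day 14 without day 9 replicate 1 (-1.21), day 9 replicate 4 (-1.10), day 14 replicate 2 (-1.03) or day 14 replicate 4 (-1.14), and was -0.60 without day 9 replicate 2. Against mESC, Nppb at day 9 was called higher without day 9 replicate 1 (1.06, adjusted p = 0.0122).

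The day 9 arrays differed most in the 2 hormone genes. For Nppa the brightest and the dimmest day 9 array were 2.60 apart on the log2 scale, 6.07-fold, although the 10 spots of the probe on 1 array had an SD of 0.074 to 0.21. For Nppb they were 1.83 apart, 3.56-fold. Of 18063 genes above background on all day 9 arrays, 0.0443% had a larger SD than Nppa and 0.288% a larger SD than Nppb, and the median SD was 0.126. By contrast the SD of Npr2 at day 9 was 0.020 and that of Corin 0.12, exceeded by 99.3% and 51.3% of genes. At day 14, 10.8% of 19012 genes had a larger SD than Nppa and 1.08% a larger SD than Nppb.

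The order of the day 9 arrays was the same for Nppa, Nppb, Corin, Npr3 and the mean of the 14 sarcomere genes, but not for Npr2. Replicate 2 was highest, followed by 3, 4 and 1, with replicates 3 and 4 nearly equal in Corin. The sarcomere mean was 3.16, 4.47, 4.30 and 3.74 in replicates 1 to 4, a range of 1.31. This order was shared by markers of other cell types: the mean of 6 endoderm and liver markers was 0.43, 1.08, 0.79 and 0.65 in replicates 1 to 4, and that of 6 neural markers -2.69, -2.18, -2.56 and -2.62. The mean of 8 fibroblast and mesenchyme markers was instead highest in replicate 1 and lowest in replicate 2, with a range of 0.77. At day 14 Nppa, Nppb, Npr2 and the sarcomere mean shared an order, with replicate 4 highest, followed by 2, 3 and 1. It was also that of the neural mean (-2.61, -2.26, -2.55 and -2.18 in replicates 1 to 4). Corin and Npr3 were instead lowest in replicate 4. At this day the sarcomere mean ranged over 0.57, Nppa over 0.50 and Nppb over 0.98. The part of the muscle genes, or of the other cell types, in the spread of the hormone genes was not tested.

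**Figure D2:**
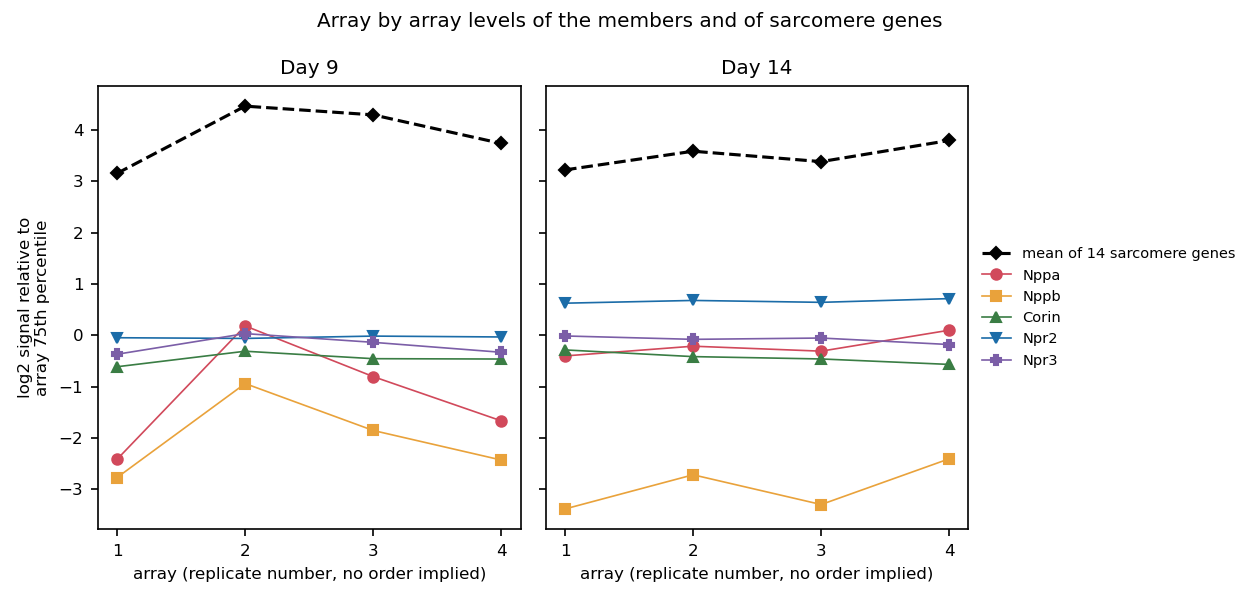
Log2 signal relative to the array's 75th percentile (y axis) of 5 member genes, by their brightest tested probe, and the mean of 14 sarcomere genes on each array of day 9 (left) and day 14 (right). The x axis is the replicate number, lines only join the points of a gene and imply no order, and Nppa runs from -2.42 to 0.18 across the day 9 arrays while Npr2 stays within 0.046.

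Corin, the ANP convertase, was below background in mESC and far above it at both days, at levels that overlapped between the days. Its probe, A_51_P135268, lay between -7.62 and -7.44 in mESC, not well above background on any array. It stood at -0.61, -0.31, -0.46 and -0.46 in replicates 1 to 4 of day 9, and at -0.29, -0.42, -0.46 and -0.57 in those of day 14. Day 9 and day 14 covered nearly the same range, and both lay far above mESC. Corin was at least 29.8-fold higher at day 9 (difference 7.06 ± 0.077 (SE), limma adjusted p = 2.8e-14) and at least 30.4-fold higher at day 14 (7.09, adjusted p = 2.39e-14). Day 14 differed from day 9 by 0.028, with a 95% interval from -0.14 to 0.20 (adjusted p = 0.764).

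Npr2, the CNP receptor, was above background in every sample, and by its brightest probe it was higher at both days than in mESC. Probe A_51_P518940 lay between -3.09 and -2.90 in mESC, between -0.062 and -0.016 at day 9 and between 0.63 and 0.72 at day 14. The groups did not overlap, and the arrays of each group lay within 0.19 of each other. The means were -2.99 ± 0.086, -0.040 ± 0.020 and 0.67 ± 0.040 (SD, n = 4). Npr2 was higher than in mESC by 2.95 ± 0.047 (SE) at day 9 (limma adjusted p = 3.34e-13) and by 3.66 at day 14 (adjusted p = 6.63e-14). Day 14 exceeded day 9 by 0.71 (95% interval 0.60 to 0.81, adjusted p = 2.43e-07), under the size for a call. In 23.2% of all genes every day 14 array was above every day 9 array.

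The other Npr2 probes disagreed with each other. A_52_P489373 followed the brightest probe, with differences from mESC of 2.71 at day 9 and 3.41 at day 14, both called, and 0.70 between the days (adjusted p = 0.000693, not called). A_52_P565549 ran the other way: it lay between -3.21 and -3.04 in mESC, between -4.18 and -3.60 at day 9 and between -4.17 and -4.05 at day 14. Its difference from mESC was -0.77 at day 9 (adjusted p = 1.98e-05, not called for its size) and -1.02 at day 14 (adjusted p = 1.52e-06), where it was called lower. Npr2 was thus 1 of 46 genes, 0.819% of the 5616 genes with several tested probes, whose probes were called in both directions at day 14 against mESC. With normexp no member probe was called lower at day 14, so Npr2 was then not called in both directions. The positions of the probes on the transcripts are not given in the sources used here, so which transcripts each probe reads was not tested.

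Npr1, the ANP and BNP receptor, was not well above background on any of the 12 arrays. The signal of its probe, A_51_P182693, lay between 1.74 and 5.11 intensity units, so no level or difference is given. Depth of signal sets the limit here: the gene was not detectable with this probe in any group, which does not show that it was absent.

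Npr3, the clearance receptor, was the member whose probes were all brighter in mESC than at the later days, by amounts that differed between the 3 probes. The brightest, A_51_P247184, lay between 0.11 and 0.23 in mESC, between -0.37 and 0.032 at day 9 and between -0.18 and -0.014 at day 14. All arrays of both later groups were below all mESC arrays, as was the case for 44.9% of all genes at day 9 and 47.8% at day 14. The differences were small: -0.38 ± 0.083 (SE) at day 9 (limma adjusted p = 0.00124) and -0.26 at day 14 (adjusted p = 0.0126), neither called. Between the days the difference was 0.12 (95% interval -0.063 to 0.30, adjusted p = 0.227). Probe A_51_P356883 lay between -0.48 and -0.36 in mESC and between -2.13 and -1.67 on the 8 later arrays. It was called lower at day 9 (-1.44) and at day 14 (-1.32), and the call at day 14 was lost with normexp. Probe A_52_P400798 was called lower at day 9 (-1.18), while its -0.79 at day 14 was under the size for a call. All 3 probes were lower at both days than in mESC, and the size depended on the probe.

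**Figure D3:**
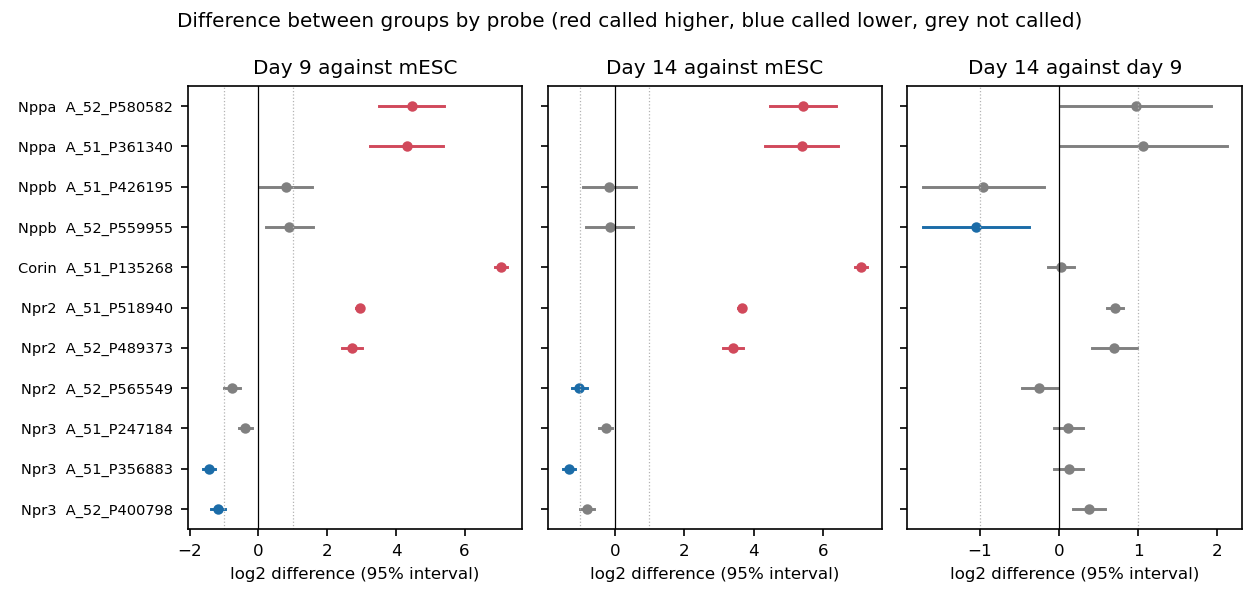
Difference in mean log2 level (x axis, with its 95% interval) of the 11 tested probes of the natriuretic peptide genes in the 3 comparisons. Red points were called higher, blue points called lower and grey points not called, and dotted lines mark a log2 difference of 1 either way. The 2 Nppa probes, the Corin probe and 2 of 3 Npr2 probes are red against mESC at both days.

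Counted by probe, 5 of the 11 were called higher and 2 lower at day 9 against mESC, where 40.4% of all 28369 tested probes were called, 19.7% higher and 20.8% lower. At day 14 the counts were again 5 and 2, where 22.2% of all probes were called higher and 24.3% lower. The 2 lower probes were both of Npr3 at day 9, and 1 each of Npr2 and Npr3 at day 14. With normexp 4 member probes were called higher and 1 lower at day 9, and 5 higher and 0 lower at day 14. Both lower calls of day 14 were thus lost under that correction. Between the days 1 probe, of Nppb, was called lower and 0 higher, where 12.8% of all probes were called, 9.47% higher and 3.37% lower. Without single arrays this last count ran from 0 to 2, and without day 9 replicate 2 both Nppa probes were called higher and the Nppb probe was not called.

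To set the members against heart muscle RNA on the same array, the mean level of the 14 sarcomere genes was subtracted array by array. Day 14 was then compared with day 9 by an exact two-sided permutation test. The sarcomere genes were lower at day 14, with a median difference of -0.53 over the 14 genes. The subtracted value is their mean, whose shift is not equal to that median. A member that stayed level would rise on this measure, as the difference of Corin went from 0.028 to 0.44. Without the subtraction Nppa differed by 0.97, Nppb by -0.95, Corin by 0.028, Npr2 by 0.71 and Npr3 by 0.12. Nppa rose relative to the sarcomere genes, from -5.10 ± 0.57 to -3.71 ± 0.072 (SD, n = 4), a difference of 1.39 (exact p = 0.0286, adjusted over 5 members 0.0476). Every day 14 array was above every day 9 array, and the day 14 arrays lay within a range of -3.80 to -3.63. How many of all genes are set apart in this way after the subtraction was not counted. Nppb fell relative to the sarcomere genes, from -5.92 ± 0.36 to -6.46 ± 0.23, a difference of -0.54 (exact p = 0.0286, adjusted 0.0476). Npr2 rose by 1.12 (adjusted exact p = 0.0476). Corin differed by 0.44 (exact p = 0.2, adjusted 0.2) and Npr3 by 0.54 (exact p = 0.114, adjusted 0.143), and neither passed. The smallest p that 4 arrays against 4 can give is 0.0286, and fewer arrays allow fewer splits. It is reached whenever the days do not overlap. The share of all genes that reach it after the subtraction was not counted, so 3 of 5 members cannot be weighed. Before the subtraction every day 14 array was above every day 9 array in 23.2% of all genes and below in 34.2%. For each of Nppa, Nppb and Npr2 the adjusted p rose above 0.05, and the call was lost, in 6 of the 8 tests that left out 1 array (day 9 replicate 1 or 2, or any day 14 array), with adjusted p up to 0.143, 0.19 and 0.143. With another background correction (normexp) the difference of Nppb turned to 0.20 (exact p = 0.886), and the adjusted exact p of Nppa and Npr2 was 0.0714 each. With the mean over a gene's probes the adjusted exact p was 0.0714 for Nppa, 0.0714 for Nppb and 0.0952 for Npr2, so all 3 calls ended. Relative to Tnnt2 and Actc1 alone the difference of Nppb was -0.16, and those of Nppa and Npr2 were 1.76 and 1.49, both still called.

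**Figure D4:**
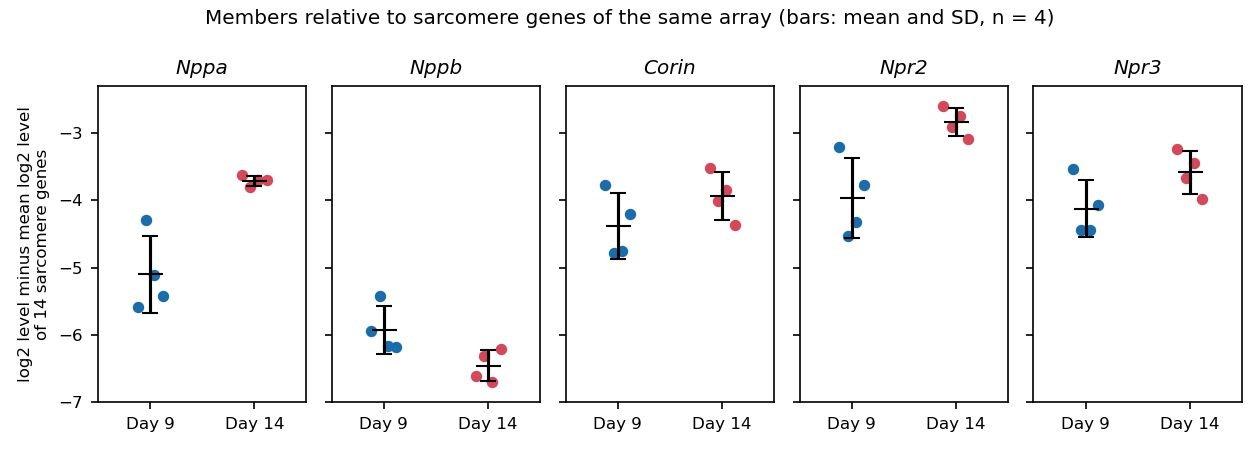
Log2 level of 5 member genes minus the mean log2 level of 14 sarcomere genes on the same array (y axis) at day 9 and day 14, with 1 point per array and bars for the mean and SD of 4 arrays. Nppa moves from a spread of -5.58 to -4.29 at day 9 to a tight group between -3.80 and -3.63 at day 14, while Nppb moves down.

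The within-array difference between Nppa and Nppb, chosen after the values were seen and not tested, was 0.36, 1.12, 1.05 and 0.76 at day 9 and 2.99, 2.51, 2.99 and 2.51 at day 14. Since each probe has its own brightness, only the shift between the days can be read from it. The 4 values of each day lay apart from those of the other, and how many other pairs of genes do so was not counted.

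The other ligands of the family were Nppc, the CNP gene, and Ostn, which encodes osteocrin, a peptide that binds the clearance receptor. Nppc was dim: it was above background on 2 of 4 mESC arrays, on 0 of 4 at day 9 and on all 4 at day 14. It was called lower at day 9 than in mESC (-1.09, limma adjusted p = 0.000147). No bound is given for that difference, since the mESC mean includes arrays on which Nppc was not above background. At day 14 it was called higher than at day 9 (at least 2.33-fold, limma adjusted p = 1.41e-05). At day 14 against mESC its difference was 0.53 (adjusted p = 0.0164), not called. Ostn was not above background on any mESC array and was at least 10.5-fold higher at day 9 and at least 14.3-fold higher at day 14.

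Genes that process propeptides or degrade natriuretic peptides moved in both directions. Of 8 tested, 4 were called higher and 3 lower at day 9, and 3 higher and 3 lower at day 14, with medians of 0.58 and 0.60. Pcsk5, a proprotein convertase, rose by 6.08 at day 9 and 5.56 at day 14. Pcsk6, a related convertase that is known to activate corin, was lower, with differences of -5.15 and -4.18. Furin, the general convertase, was higher by 1.65 at day 9, while its difference of 0.89 at day 14 was not called. Pam, a peptide-amidating enzyme, was at least 11.5-fold higher at day 9 and at least 19.7-fold higher at day 14. Of the peptide-degrading enzymes, Mme (neprilysin) was lower, with differences of -2.64 and -2.95, and so was Ide (insulin-degrading enzyme), with -2.36 and -2.32. Ece1 (endothelin-converting enzyme) rose by 2.77 and 1.84. Between the days limma called 0 of these 8, with 3 above and 3 below 0 at an adjusted p under 0.05.

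Downstream of the receptors, 4 of 8 tested genes of cGMP synthesis and action were called higher and 0 lower at both days. These were the soluble guanylyl cyclase subunits Gucy1a1 (at least 103-fold at day 9 and at least 261-fold at day 14) and Gucy1b1 (7.25 and 7.08 on the log2 scale, with a signal above background on 1 of 4 mESC arrays), which answer to nitric oxide and not to natriuretic peptides. The others were the cGMP-dependent kinase Prkg1 (at least 22.5-fold and 14.4-fold) and its partner Mrvi1 (at least 91.8-fold and 53.3-fold). Gucy1a1 was also higher at day 14 than at day 9, by 1.33. The kinase Prkg2, the intestinal cyclase Gucy2c, Ppp1r12a and Vasp were not called in any comparison. The medians of the 8 genes were 2.89 and 2.39 at the days against mESC.

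Of 10 tested phosphodiesterases, which break down cyclic nucleotides, 5 were called higher and 1 lower at day 9, and 4 higher and 1 lower at day 14. Pde3a, a heart and vessel enzyme that cGMP inhibits, was at least 21.7-fold and at least 13.3-fold higher. Pde5a, which degrades cGMP, was higher by 2.09 at day 9 and by 3.26 at day 14 (above background on 1 of 4 mESC arrays), and Pde1a by 2.20 and 5.69. Both were also called higher between the days, by 1.17 and 3.49. Pde1b was lower, with differences of -1.43 and -1.78. Pde9a, which degrades cGMP, differed from mESC by 0.58 and 0.24 and was not called.

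**Figure D5:**
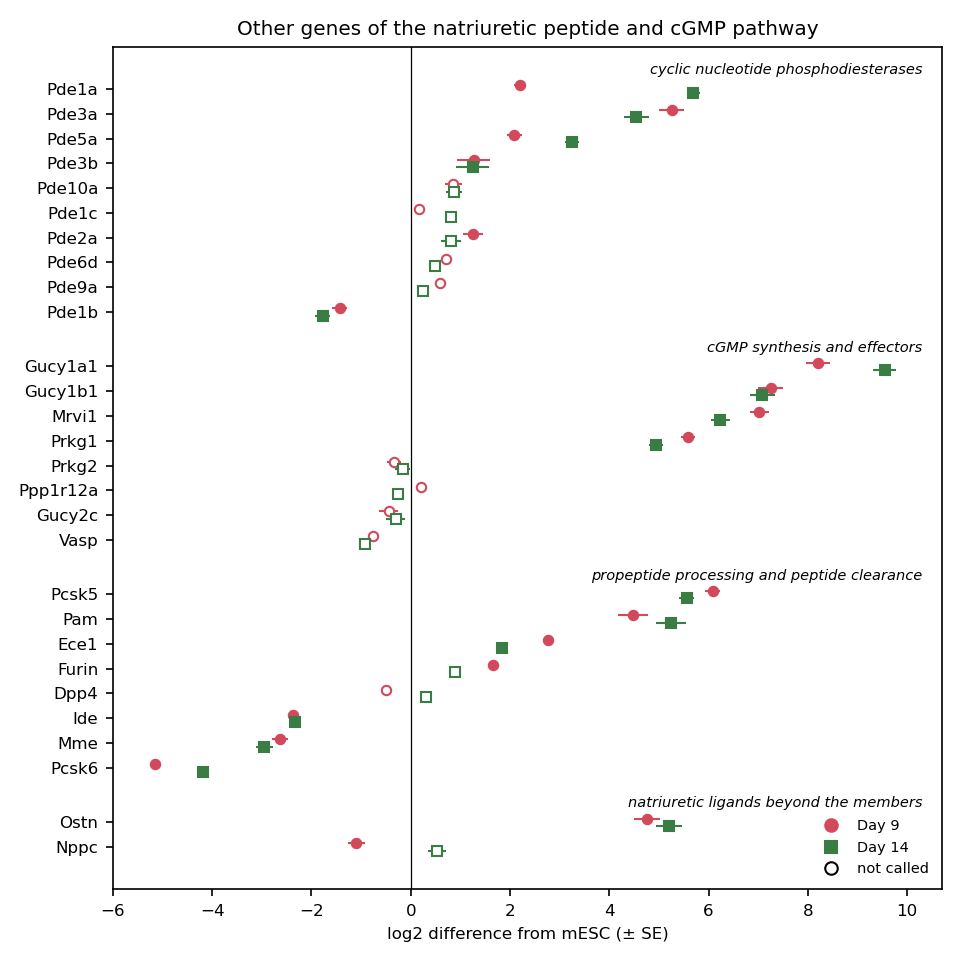
Log2 difference from mESC (x axis, points with their SE) of 28 other tested genes of the pathway in 4 lists, with circles for day 9, squares for day 14, and open symbols where the gene was not called. Pcsk5 and Pcsk6 lie on opposite sides of 0, and Pde1a is the gene whose day 14 value lies farthest from its day 9 value.

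Of 19 transcription factors known to act on natriuretic peptide genes, 17 were called higher and 2 lower at day 9 than in mESC, and 16 higher and 2 lower at day 14. Among the activators, Gata4 was at least 13.5-fold and at least 7.84-fold higher, Hand2 at least 110-fold and 65.8-fold, and Mef2c at least 71-fold and 63.9-fold. Gata6 was higher by 6.18 and 5.97, Tbx5 by 5.54 and 4.68, and Nkx2-5 by 4.04 and 2.87. The repressor Tbx2 was higher by 3.19 and 3.48, whereas the repressors Tbx3 (differences of -3.55 and -4.29) and Rest (-1.79 and -1.91) were the 2 that were lower. Hey1 (2.88 and 2.63) and Hey2 (at least 11-fold and at least 8.26-fold) of the same list were higher too. The list was not divided into activators and repressors in advance, so no count by role is given. Srf was higher by 1.29 at day 9, and its 0.80 at day 14 was not called. Between the days 0 were called higher and 2 lower: Nkx2-5 fell by 1.18 and the progenitor factor Isl1 fell by 1.85. The medians of the list were 3.76, 2.99 and -0.49 in the 3 comparisons.

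Genes of chamber muscle gave a further measure of the cells in which Nppa is known to be active. Of 10 tested, of which Myl7 and Myl4 also stand among the sarcomere genes, 9 were called higher at day 9 and 10 at day 14 than in mESC, and 0 lower. Smpx was at least 90.4-fold and at least 104-fold higher. Sln, which encodes sarcolipin, an atrial regulator of the calcium pump, was not above background in mESC or at day 9 and was at least 68.7-fold higher at day 14 than at day 9. Gja5, a connexin of atrium and conduction system, was higher by 1.55 at day 14 than at day 9, and these were the 2 of the list called between the days. Bmp10, a growth factor of trabecular and atrial muscle, was not tested because it did not pass the filter. Of 8 genes known to rise with Nppa and Nppb in strained heart muscle, 6 were called higher at day 9 and 5 at day 14. Ankrd1, which encodes a stretch-responsive protein, was at least 381-fold and at least 353-fold higher. Acta1, skeletal alpha actin, was at least 122-fold and at least 56.5-fold higher and was called lower between the days (fell by 1.11). Rcan1 and Ankrd2 were not called in any comparison.

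Other cell types that the cultures could hold were followed by their markers, whose part in the members' changes was not tested. Of 10 endothelial markers, 8 were called higher and 1 lower at day 9 and 6 higher and 1 lower at day 14, and 6 of 10 were called lower between the days. Their summed level, in units of the array's 75th percentile, lay between 11.6 and 12.4 in mESC, 14.0 and 18.8 at day 9, and 9.18 and 10.2 at day 14. The mean of their log2 levels, which weights each marker equally, was instead above mESC at both days, at -3.54 to -3.33 in mESC, -0.76 to -0.30 at day 9 and -1.70 to -1.60 at day 14. Of 8 fibroblast and mesenchyme markers all were called higher at both days, and their summed level rose from between 1.16 and 1.22 in mESC to between 238 and 419 at day 9 and between 535 and 591 at day 14. Col3a1, Dcn, Lum and Postn were below background on all mESC arrays. Of 7 cartilage and bone markers 3 were called higher and 3 lower at day 9, and 4 were called higher at day 14 than at day 9. Against mESC 3 of them were called higher and 2 lower at day 14. Their summed level was 1.42 to 1.53 in mESC, 3.31 to 3.77 at day 9 and 6.01 to 6.54 at day 14. Their mean log2 level overlapped between mESC (-3.13 to -2.83) and day 9 (-2.98 to -2.85) and was -1.94 to -1.86 at day 14. All 8 macrophage markers were called higher at day 14 than at day 9, and Adgre1, C1qa and C1qc were below background on all day 9 arrays. Of 6 smooth muscle markers 5 were called higher at both days, with a summed level of 9.91 to 10.6 in mESC, 119 to 137 at day 9 and 99.7 to 110 at day 14. Their mean log2 level went the other way between the days, from 1.52 to 1.78 at day 9 to 2.61 to 2.76 at day 14, with Mylk (4.99) and Myh11 (2.23) called higher and 0 lower. All 6 endoderm and liver markers were called higher at both days, with a summed level of 0.255 to 0.329 in mESC, 37.4 to 61.6 at day 9 and 172 to 184 at day 14. Afp and Alb were called higher between the days. Of 6 epicardial markers, 4 were called higher and 1 (Msln) lower at day 9, and 4 higher and 0 lower at day 14, and 4 were called higher between the days. Their mean log2 level was -3.47 to -3.26 in mESC, -0.94 to -0.57 at day 9 and 1.08 to 1.34 at day 14. Of 6 neural markers, 2 were called higher and 1 lower at each day against mESC.

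Genes whose levels ran most like each member over the 12 arrays were ranked among 14756 named genes by Pearson correlation. This is a description, since the 12 arrays share 3 groups and any gene with steps between groups in like proportion ranks high, whatever their size. Pkig, the gene most like Nppa, had means of only 3.30, 4.02 and 4.22 in mESC, day 9 and day 14. Nppa ran most like Pkig (r = 0.9966), Cacna1c (0.9963) and Adcy5 (0.9947), which encode a kinase inhibitor, the cardiac L-type calcium channel and the cardiac adenylyl cyclase. For Nppa 1073 genes exceeded a correlation of 0.95. Corin ran most like Pth1r (0.9997), Pcdh7 and Pappa, and 2252 genes exceeded 0.95. Npr2 ran most like Fam171a2 (0.9995), Lgals3bp and C1qtnf6, and 2128 genes exceeded 0.95. For Nppb 0 genes exceeded 0.95, and the nearest were Frmd5 (0.9474), Nipsnap2 (0.9384) and Myo18b (0.9284), the last a muscle myosin. For Npr3 2 genes did, Tomm40l (0.9644) and Cryzl2 (0.951), followed by Chrnb1 (0.9472).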

How the data were processed

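RNA of 12 samples was labelled with Cy3 and hybridised to 1-colour Agilent arrays, per the labels' protocols. Per the submitters' processing notes the arrays were read with Agilent Feature Extraction 12. The deposited processed signal is an intensity, the background-subtracted brightness of a spot on a linear scale, per the file headers, and was not scaled between arrays. The deposited flags (values of 0 or 1, which stand for a score per the file headers) mark spots well above background, saturated spots and outliers. The deposited series table held equal intensities.

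From 43379 spots that are no controls, outlier spots were left out, spots of a probe were averaged on the log2 scale and the 75th percentile of each array was subtracted. A probe was tested if well above background on at least 3 of 4 arrays of at least 1 group. RefSeq accessions of GRCm38.p6 named 28223 of 41174 probes. Groups were compared by limma 3.58.1 under R 4.3.3 (group means over 12 arrays, two-sided, Benjamini-Hochberg over 20869 genes, or over 28369 probes where a probe's adjusted p is given). A gene without a name counts by its accession. Intervals are 95% intervals of the moderated test. Arrays have no counting depth, and their number, 4 per group, limits the precision. The fit and its calls were tested on simulated data.

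The members, gene lists and tests were chosen with earlier results of these data known. Named were the 6 members with every probe, Nppc, up to 3 called genes per pathway list and comparison with the largest change, and the 3 genes most like each member. From the lists, further genes were named for their known role after their values were seen. Alternatives tried were normexp background correction, quantile and median scaling, the series' value table, other filters, an average of probes, fits of 8 arrays, a variance trend, other reference genes, the replicate number as a block and leaving out each array. The normexp correction used the median signal, as chosen after seeing the data.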

Additional observations from a re-analysis of the deposited data

Results flagged for a closer look

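In each of 36 sets of 4 arrays (12 probes in 3 groups) the array at either end was compared with its nearest neighbour by Dixon's ratio of that gap to the whole range against its 95% critical value. Chance alone exceeds it in about 1 in 20 groups, so about that share of the sets would be expected to stand out. In the Npr2 probe A_52_P489373, which followed the brightest Npr2 probe, day 9 replicate 4 lay at -1.65, below the other arrays of its group (ratio 0.882). In the Npr2 probe A_52_P565549, the one that ran opposite, mESC replicate 4 lay at -3.21, below the other arrays of its group (ratio 0.837). Neither array was apart from its group in the brightest Npr2 probe, and leaving out any array changed no call of that probe. The wide spread of Nppa and Nppb at day 9 is not among these, since their 4 arrays were spaced along the whole range.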

How the results depend on the processing

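Against mESC, the calls of Nppa, Corin and Npr2 held under every alternative in which they were tested, and no member was called in the opposite direction. Over the alternatives Nppa ran from 1.65 to 4.87 at day 9 and from 2.38 to 5.50 at day 14, Corin from 2.39 to 7.34 and from 2.44 to 7.37, and Npr2 from 1.63 to 2.98 and from 2.02 to 3.68. The low ends of Nppa and Corin came with normexp, whose offset compresses dim signals, and those of Npr2 with the mean over its probes, which run in opposite directions. With only probes above background on all 12 arrays, 1 member gene and 4 member probes were called at each day against mESC, because Nppa and Corin are then not tested. Leaving out single arrays gave 3 to 4 member genes and 7 to 9 member probes at day 9, and 3 genes and 6 to 7 probes at day 14.

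Between the days the count of called members was not stable. It was 1 gene with quantile normalization (Nppb, -1.13) and 1 with median scaling (Nppb, -1.14), 0 to 1 genes without single arrays, and by probe 0 with normexp, 2 with quantile normalization, 2 with median scaling and 0 to 2 without single arrays. Values that changed sign were small: Nppb at day 14 against mESC was 0.10 with normexp, Corin between the days was -0.16 with median scaling and -0.023 to 0.078 without single arrays (below 0 without day 9 replicate 1 or day 14 replicate 1), and Npr3 between the days was -0.071 with median scaling. Relative to the sarcomere genes, Nppa was 1.25, Nppb 0.20 and Npr2 1.11 with normexp, and Nppa was 1.43, Nppb -0.59 and Npr2 0.80 with the mean over probes. Against Tnnt2 and Actc1 alone Nppb was -0.16 and Npr3 0.91. Of the values just listed only that of Npr3 passed, at an adjusted exact p of 0.0476. Without single arrays Nppa ran from 1.23 to 1.66, Nppb from -0.62 to -0.37, Corin from 0.30 to 0.65, Npr2 from 0.93 to 1.37 and Npr3 from 0.42 to 0.73. The cause of these changes was not tested, beyond the fewer splits that fewer arrays allow.

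Median scaling moved the median of all genes to -0.29, -0.51 and -0.28, and the share of calls that were higher from 48.6 to 36.3% at day 14 against mESC and from 73.8 to 58.9% between the days. The count of all genes called fell from 8562, 9780 and 2880 to 4759, 5848 and 1232 with normexp and to 5483, 6430 and 1305 with probes above background on all arrays. Under an alternative, 27 calls of list genes were lost and 0 changed direction. The replicate number as a block (its same-numbered pairs correlated between -0.075 and 0.18, with 1 of 12 over 0.1) left the counts of called members at 3, 3 and 0. Slide as a block could not be fitted, since each slide held 1 group, and normexp on the mean signal was not run, since the files used here give the median signal.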
